A study of Homo sapiens with 6 samples.

Results

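The genes described here are 39 genes of mitosis and of the G2/M transition, chosen by name from a fixed list and found by symbol in the deposited count table, where all 39 of 61228 gene names were present. They were measured in MDA-MB-231, an established human breast cancer line of the triple-negative, mesenchymal-like type, grown in droplets of collagen I gel. The study compared 3 control libraries, from cells nucleofected with Cas9 and control guide RNAs, with 3 knockout (KO) libraries, from cells nucleofected with Cas9 and guides against ETV1, ETV4 and ETV5, a family of ETS transcription factors downstream of receptor and ERK signalling. All 6 libraries therefore share Cas9 nucleofection, culture in collagen I and release with collagenase. The sample titles name ETV4 alone, and the names of the KO libraries carry an unexplained tag, c39; whether they come from 1 clone, and which of the collagen concentrations each gel had, is not stated. The labels also do not say whether replicates are separate cultures, so the p-values reflect the spread among these libraries alone, and that spread may be technical.

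Cells enter mitosis when CDK1, bound to cyclin A or cyclin B, is switched on by CDC25 phosphatases, and leave it when the anaphase-promoting complex (APC/C), with CDC20, marks cyclin B and securin for destruction. In between, the spindle is built by kinesins and microtubule-binding proteins, chromosomes attach to it through kinetochores, and the spindle checkpoint holds the cell until attachment is complete. Most of these genes are transcribed mainly in G2 and M, through the cell cycle genes homology region (CHR), a short promoter element bound by the DREAM and MYB-MuvB complexes, together with CCAAT boxes bound by NF-Y. In bulk RNA such as this, a larger share of cells in G2 or M and more of these transcripts per cell cannot be told apart.

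Libraries held between 18042601 and 23232770 gene counts. ETV1 transcripts fell from 223 ± 13.5 to 142 ± 11.1 CPM (count rate after scaling to library size, mean ± SD, n = 3) and ETV4 from 93.9 ± 2.11 to 63.7 ± 2.03 CPM, whereas ETV5 measured 112 ± 4.77 and 113 ± 1.23 CPM. Replicate 3 of each group stood apart from replicates 1 and 2: the chi-square per degree of freedom between libraries was 3.88 for control 1 against 2 and 5.76 for KO 1 against 2, but between 17.8 and 18.8 for the pairs with replicate 3. The line's markers VIM (6661 ± 865 CPM in control) and CD44 (416 ± 41.1 CPM) were abundant, and ESR1 and PGR had 2 and 1 counts over all libraries. Of 7 markers of blood, endothelial and stromal cells, 2 (CD3E and CDH5) had no count, and the 7 summed to between 10.2 and 11.5 CPM in control and between 5.45 and 7.94 CPM in KO; their part in the results was not tested.

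RefSeq promoter windows (GRCh38.p14, 250 bases before to 50 bases after the start) were found for 33 of the 39; AURKA, TTK, BIRC5, TPX2, FAM83D and UBE2C were not matched. The sequences below are the 150 bases before the start, 5′ to 3′, of the 4 genes that passed the test between groups (KIF4A, PLK1, NDC80 and CCNA2), of the proliferation marker MKI67, and of ANLN, the 1 tested gene with a negative fold change. Capitals mark a CHR match (TTTGAA or TTCGAA) or a CCAAT match, on either strand, as far as it lies before the start.
KIF4A (chrX:70289954-70290103, plus strand): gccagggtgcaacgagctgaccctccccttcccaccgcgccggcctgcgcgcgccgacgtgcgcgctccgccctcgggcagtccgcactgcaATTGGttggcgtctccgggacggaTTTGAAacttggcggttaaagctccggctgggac
PLK1 (chr16:23678739-23678888, plus strand): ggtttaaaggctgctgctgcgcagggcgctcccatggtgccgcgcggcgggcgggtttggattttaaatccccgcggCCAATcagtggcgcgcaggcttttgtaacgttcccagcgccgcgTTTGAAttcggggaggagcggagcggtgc
NDC80 (chr18:2571407-2571556, plus strand): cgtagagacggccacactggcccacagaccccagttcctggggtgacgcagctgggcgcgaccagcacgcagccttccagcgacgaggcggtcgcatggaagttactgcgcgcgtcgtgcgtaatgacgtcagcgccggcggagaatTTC
CCNA2 (chr4:121823884-121824033, minus strand): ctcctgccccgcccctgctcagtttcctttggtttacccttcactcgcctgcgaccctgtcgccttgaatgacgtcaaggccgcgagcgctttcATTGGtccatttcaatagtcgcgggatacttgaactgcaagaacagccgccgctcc
MKI67 (chr10:128126424-128126573, minus strand): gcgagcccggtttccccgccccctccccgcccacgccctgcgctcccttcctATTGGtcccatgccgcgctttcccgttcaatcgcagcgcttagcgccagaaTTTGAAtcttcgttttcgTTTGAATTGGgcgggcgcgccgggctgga
ANLN (chr7:36389712-36389861, plus strand): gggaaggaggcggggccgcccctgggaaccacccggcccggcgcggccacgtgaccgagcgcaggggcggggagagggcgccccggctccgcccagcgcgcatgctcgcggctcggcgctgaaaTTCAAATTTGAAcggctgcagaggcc

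A CHR match stood in 24 of the 33 windows (72.7%), against 16.6% of 27305 promoter windows of the same length and 11.2% of the 10757 windows of genes tested here. CCAAT stood in 27 of the 33 (81.8%), against 35.7% of all windows and 36.8% of those of tested genes, and both stood in 21 (63.6%), against 6.58% and 4.77%. In KIF4A the CCAAT match began 58 bases and the CHR match 34 bases before the start, and in PLK1 they began 73 and 29 bases before it. NDC80 had CHR matches at 3 bases before and 4 bases after the start and no CCAAT match. CCNA2 had a CCAAT match and neither of the CHR spellings searched. ANLN had a pair of CHR matches, 26 and 20 bases before the start, and no CCAAT match. Other spellings of the CHR were not searched, so a window without a match may still hold such an element. MKI67 had both in duplicate, with 1 CCAAT match overlapping the end of a CHR match.

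The core of the ETS motif was searched as CCGGAA on both strands. It stood in 7 of 33 (21.2%), against 17.6% of all windows and 29.9% of the windows of tested genes. The 7 were CCNB1, AURKB, KIF11, KIF23, KIF4A, DLGAP5 and CDC20, and PLK1, NDC80 and CCNA2 had no match. E2F matches (TTTCCCGC, TTTGGCGC, TTTCGCGC or TTTGCCGC) stood in 3 of 33 (9.09%; CDK1, CENPA and NUSAP1), against 3.33% of all windows and 5.41% of those of tested genes. These are matches of letters, not measured binding.

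**Figure D1:**
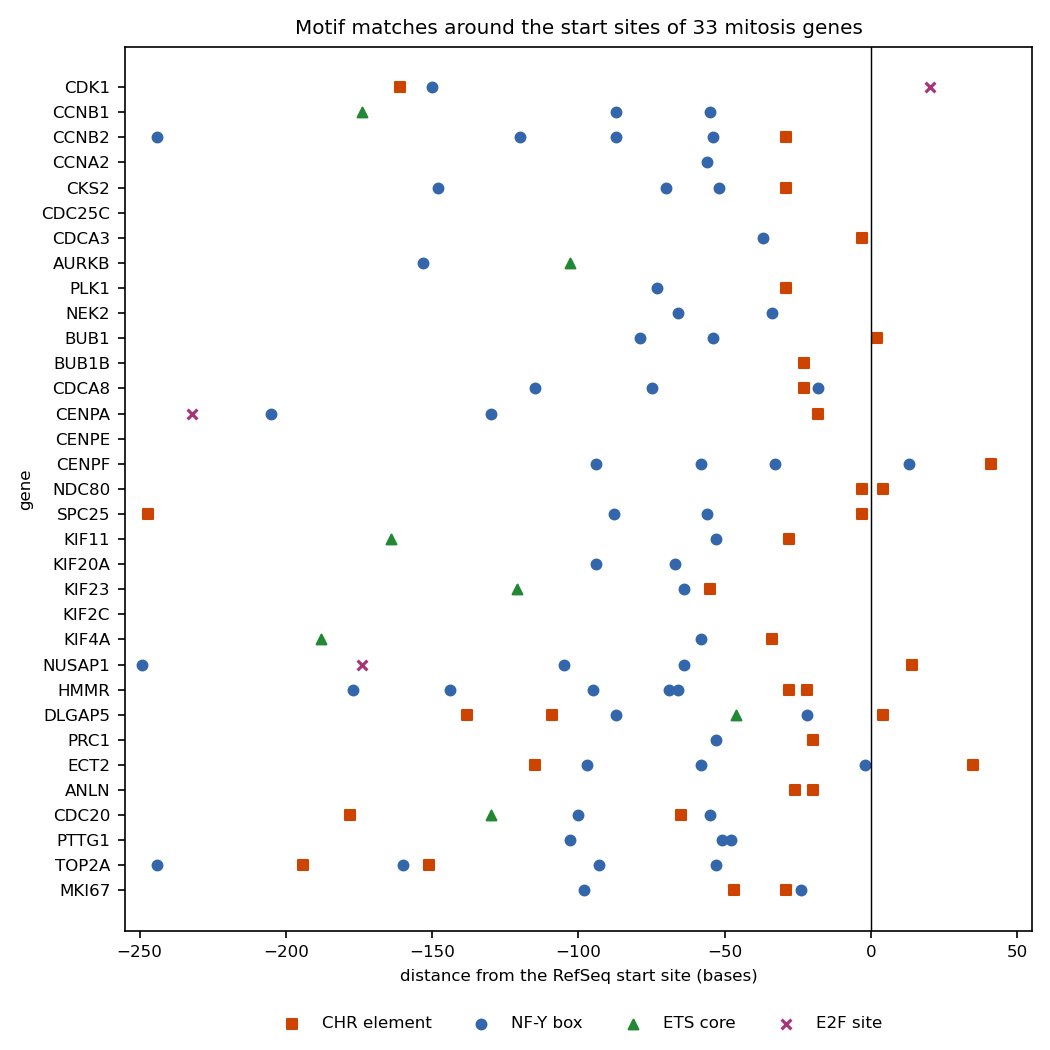
Motif matches in the promoter windows of 33 mitosis genes; the x axis is the distance from the RefSeq start in bases, each row is a gene and each symbol is the first base of a match on either strand (CHR element, NF-Y box meaning CCAAT, ETS core, E2F site). CHR and NF-Y matches are in 24 and 27 of the 33 rows and ETS core matches in 7.

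Of the 39 genes, 38 passed the filter on low counts. NUSAP1, a microtubule-bundling protein of the spindle, did not: it had 1, 1 and 1 counts in the control and 0, 2 and 1 counts in the KO libraries, at or below the 3 counts that a count of 0 allows, so no fold is given. PRC1, which bundles the central spindle, was also low, with between 78 and 125 counts per library. In the GENCODE release 29 annotation of GRCh38, 62.2% of the exonic bases of NUSAP1 (ENSG00000137804, chromosome 15, 41332694 to 41381050, plus strand) are also exonic in ENSG00000285920, a longer protein-coding gene model on the same strand, which had 0 counts in all 6 libraries. For PRC1 (ENSG00000198901, chromosome 15, 90966038 to 90995629, minus strand) the share is 57.6%, with ENSG00000284946, which had between 117 and 233 counts per library.

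No other gene among the 39 came near these shares. BUB1B shared 10.2% and CENPA 6.96% of their exonic bases with another gene on the same strand, and the remaining 35 shared none. Per kilobase of exon, NUSAP1 measured 0.0167 and PRC1 0.837 CPM in control, and the next lowest, HMMR, measured 5.70 CPM. Reads in shared exons can be dropped or divided depending on the counting settings, which the sources used here do not give, so the levels of NUSAP1 and PRC1 are uncertain; the part of exon sharing in their low counts was not tested.

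**Figure D2:**
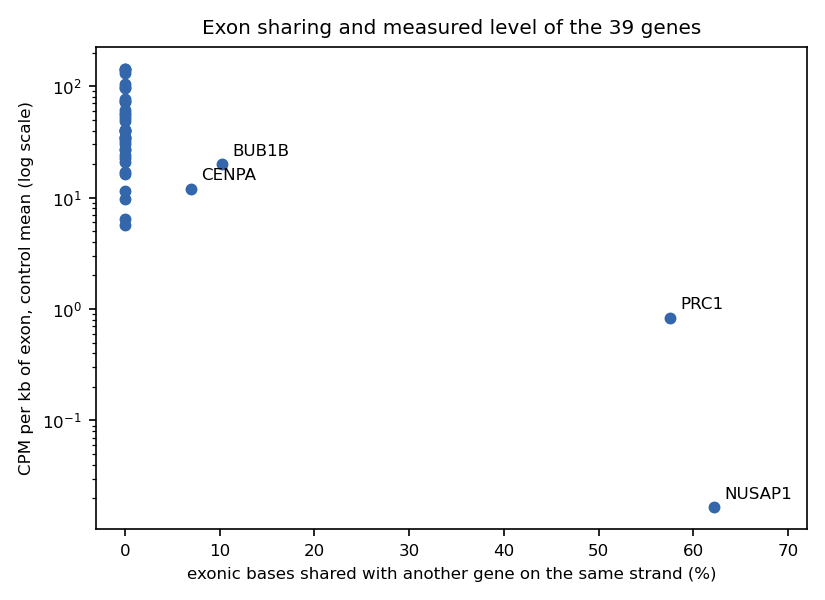
Control level (mean CPM per kilobase of exon, log scale) of each of the 39 genes against the percentage of its exonic bases that another gene on the same strand also uses in GENCODE release 29. PRC1 (57.6%) and NUSAP1 (62.2%) lie below all other genes, at 0.837 and 0.0167 CPM per kilobase.

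The other 37 genes ranged from 5.70 (HMMR) to 143 (CKS2) CPM per kilobase of exon in control. The highest levels per kilobase belonged to CKS2 (143 ± 13.3), UBE2C (143 ± 8.05), CDC20 (140 ± 9.70) and TPX2 (132 ± 10.2), which did not differ beyond their spread over libraries, followed by CCNB1 (106 ± 5.49). CDC25C (6.41 ± 1.18), CDCA3 (9.63 ± 0.427) and the centromeric kinesin CENPE (11.6 ± 1.31) were at the low end, above HMMR. Lengths are of all annotated exons and may differ from those of the transcripts present.

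KIF4A, PLK1, NDC80 and CCNA2 rose, 4 of the 38 tested (10.5%), where 3.28% of all 14704 tested genes rose in edgeR's quasi-likelihood test, and 0 fell, where 6.42% of all genes fell. At an unadjusted p under 0.05, 18 were higher and 0 lower, where 1646 and 2082 of the 14704 tested genes were. DESeq2 called 8 higher and 0 lower, where it called 593 (4.03%) and 966 of all genes. The median log2 fold change was 0.15, against 0.0040 over all tested genes, and 37 of the 38 were above 0, against 50.7% of all genes. Every KO library was above every control library for 22 of the 38 (57.9%), against 14.9% of all genes, and the reverse held for 0 of them, against 16.8%. The summed level of the 39 genes was 6988, 7019 and 6549 CPM in control 1, 2 and 3 and 7681, 7893 and 7349 CPM in KO 1, 2 and 3, 11.5% higher on average in KO, without overlap between the groups.

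The calls depended on which libraries were in the fit, and these genes also differed between replicates within a group. Replicate 3 was the lowest library of its group in both groups for 24 of the 38 genes, and the highest in both for 5. The same counts were not made over all genes, so these numbers cannot be called particular to mitosis genes. The median gap of replicate 3 to the mean of replicates 1 and 2 was -0.12 in control and -0.088 in KO on the log2 scale, against -0.018 and 0.0085 over all genes. The gap ran the other way for SPC25 (0.35 in control and 0.23 in KO), PTTG1 (0.25 and 0.21), BUB1B (0.23 and 0.20) and UBE2C (0.14 and 0.15). With the replicate number as a block in the edgeR fit, 27 of the 38 were called higher (71.1%) and ANLN was called lower, where 17.2% and 16.7% of all genes were called. The block takes same-numbered libraries as pairs, which the labels do not state. With both replicate 3 libraries left out, 25 were called higher (65.8%), where 11.7% of all genes were. With 1 library left out, 0 passed the group test when it was control 2, KO 1 or KO 2. When it was control 1, 1 passed (KIF4A), when it was control 3, 2 passed (KIF4A and SPC25), and when it was KO 3, 11 passed. Over all genes, those fits called 136 higher without control 2, 183 without KO 1, 175 without KO 2 and 139 without control 1. They called 347 higher without control 3 and 777 without KO 3, where 483 were higher with all libraries.

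**Figure D3:**
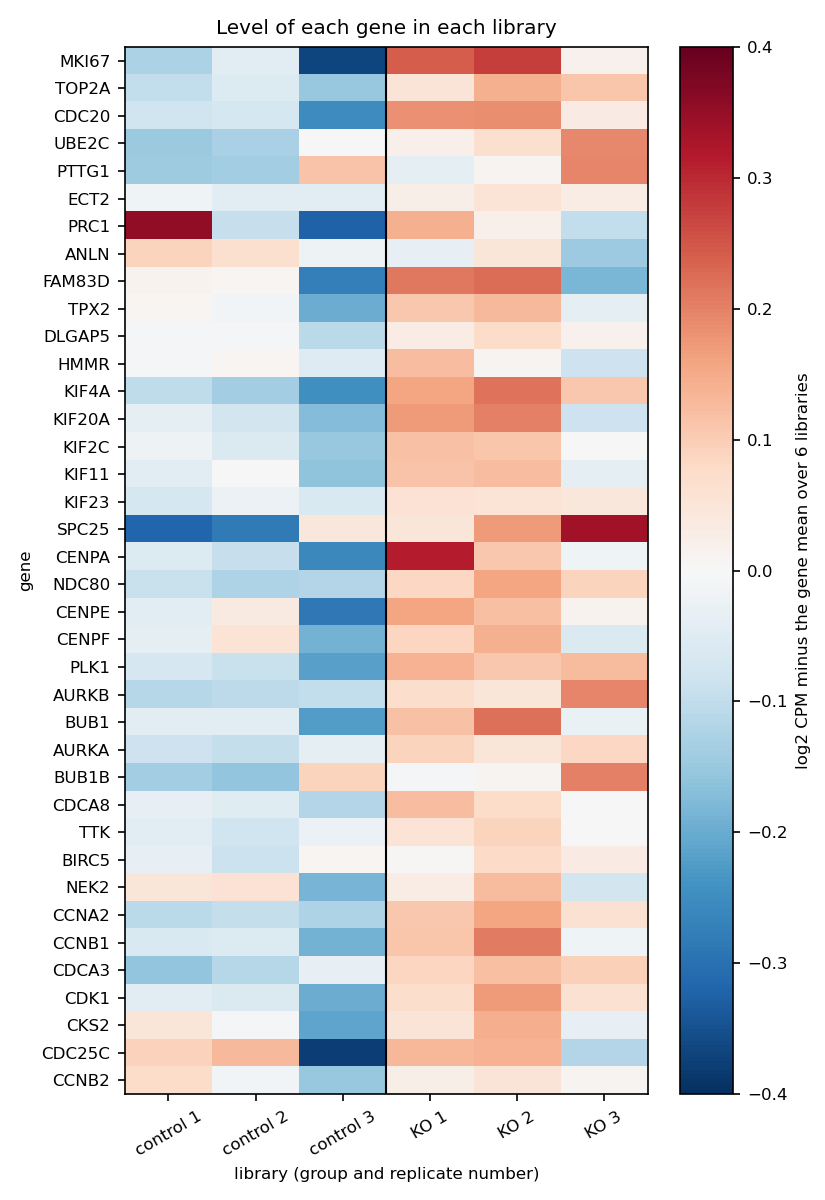
Heat map of the 38 tested genes (rows, in the order of their roles) in the 6 libraries (columns); colour is log2 CPM minus the gene's mean over the 6 libraries. Control 3 is the lowest of the 6 libraries for 25 of the 38 genes, SPC25, BUB1B, PTTG1 and UBE2C are higher in replicate 3 of each group, and KO 2 is above the gene mean for all 38.

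Set side by side within the same-numbered pairs, the difference was of similar size in each. The labels do not state this pairing, and the data match only replicate 3 across the groups. KO was above control for 34 of 38 genes in pair 1, 37 in pair 2 and 36 in pair 3, with median log2 differences of 0.15, 0.17 and 0.16, where the medians over all genes were -0.00016, -0.0062 and 0.020. KO was higher in all 3 pairs for 33 of the 38 (86.8%), against 29.4% of all genes, and lower in all 3 for ANLN alone, against 28.2%.

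**Figure D4:**
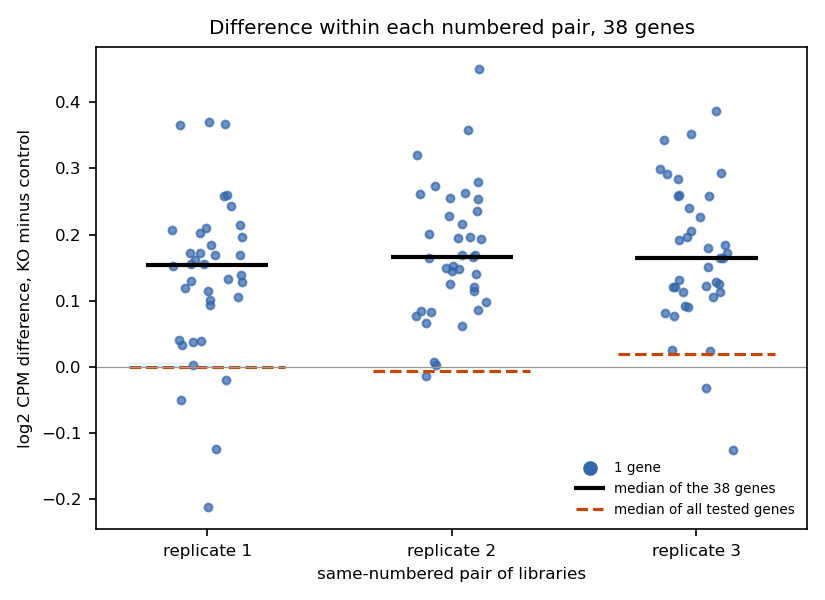
Difference in log2 CPM, KO minus control, within each same-numbered pair of libraries; each point is 1 of 38 genes, the solid bar is their median and the dashed bar the median over all tested genes. The medians of the 38 genes are 0.15, 0.17 and 0.16.

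The switch into mitosis is thrown by CDK1 with its cyclins. CCNA2, cyclin A2, rose: it measured 135, 136 and 134 CPM in control and 157, 163 and 152 CPM in KO, a log2 fold change of 0.22 (SE 0.06, adjusted p = 0.0408), and the groups did not overlap. It passed in 1 of the 6 leave-one-out fits (highest adjusted p 0.157), and not without the low-count filter. Of its exonic bases 9.08% overlap EXOSC9 on the other strand. CDK1, the kinase itself, measured 165, 163 and 148 CPM in control and 178, 191 and 177 CPM in KO, also without overlap, but did not pass (log2 fold change 0.20, SE 0.07, adjusted p = 0.0999; 2.52e-05 with the replicate block). CCNB1, cyclin B1, measured 277, 279 and 254 against 312, 334 and 286 CPM (0.20, SE 0.08, adjusted p = 0.132; 3.62e-06 with the block). CCNB1 is thus ordered like CDK1, with every KO library above every control library.

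The second B-type cyclin gene did not share this separation. CCNB2, cyclin B2, measured 104, 98.1 and 88.9 CPM in control and 100, 102 and 99.6 CPM in KO, with overlap between the groups (0.06, SE 0.07, adjusted p = 0.667; 0.329 with the block). CDC25C, the phosphatase that activates CDK1, measured 23.3, 24.0 and 16.8 against 24.0, 24.1 and 20.1 CPM, and the small CDK-binding subunit CKS2 93.9, 90.6 and 78.4 against 94.1, 100 and 88.8 CPM; neither passed with or without the block. CDCA3, an adaptor for the breakdown of the CDK1 inhibitor WEE1, measured 52.4, 53.9 and 57.1 against 62.0, 63.4 and 62.4 CPM (0.20, SE 0.06, adjusted p = 0.0766; 0.00162 with the block). In this set of 7, 1 passed the group test and 4 the block fit, all higher, where 3.28% and 17.2% of all genes were higher.

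Among the mitotic kinases, PLK1, polo-like kinase 1, which acts from centrosome maturation to cytokinesis, rose. It measured 159, 157 and 144 CPM in control and 184, 180 and 182 CPM in KO (log2 fold change 0.25, SE 0.06, adjusted p = 0.0371), without overlap, and 12.5% of its exonic bases overlap ERN2 or ENSG00000261266 on the other strand, which had 3 and 11 counts over all libraries. It passed in 1 of the 6 leave-one-out fits (highest adjusted p 0.119). The Aurora kinases were also separated between groups. AURKA, which acts at spindle poles, measured 221, 219 and 228 against 249, 242 and 248 CPM (0.15, SE 0.06, adjusted p = 0.14; 6.33e-04 with the block). AURKB, the kinase of the chromosomal passenger complex, measured 122, 123 and 124 against 139, 137 and 152 CPM (0.21, SE 0.06, adjusted p = 0.0614; 2.55e-05 with the block). Its partners in that complex had smaller differences: CDCA8 (borealin) 0.13 (SE 0.06, adjusted p = 0.206; 0.00464 with the block) and BIRC5 (survivin) 0.08 (SE 0.06, adjusted p = 0.462; 0.13 with the block), all as log2 fold changes.

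The checkpoint kinases were less uniform. BUB1, which marks unattached kinetochores, measured 143, 143 and 126 against 160, 171 and 144 CPM (0.21, SE 0.08, adjusted p = 0.15; 1.91e-05 with the block). BUB1B, which encodes the checkpoint protein BUBR1, measured 84.4, 83.3 and 98.7 against 92.6, 93.5 and 107 CPM, with overlap because control 3 was high (0.14, SE 0.09, adjusted p = 0.377; 0.0107 with the block). TTK, the checkpoint kinase MPS1, ran from 75.4 to 78.5 CPM in control and from 79.9 to 84.8 CPM in KO (0.10, SE 0.06), and NEK2, a centrosome-splitting kinase, from 57.8 to 68.6 against 62.5 to 71.9 CPM (0.05, SE 0.09); neither passed in either fit. Of the 9 genes in this set, 1 passed the group test and 6 the block fit, all higher, where 3.28% and 17.2% of all genes were higher.

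At the kinetochore, NDC80, the microtubule-binding subunit of the outer kinetochore, rose. It measured 129, 126 and 126 CPM in control and 145, 153 and 146 CPM in KO (log2 fold change 0.22, SE 0.05, adjusted p = 0.0376), without overlap; it passed in 1 of the 6 leave-one-out fits (highest adjusted p 0.166), and not without the low-count filter. SPC25, a subunit of the same complex, had the largest log2 fold change of the 38 genes, 0.36 (SE 0.12). It measured 26.9, 27.6 and 34.7 against 34.8, 37.8 and 42.5 CPM, so that control 3 nearly reached KO 1, and did not pass (adjusted p = 0.086; 7.28e-06 with the block). CENPA, the histone H3 variant that marks centromeres, measured 25.2, 24.6 and 21.9 against 32.6, 28.2 and 25.9 CPM (0.27, SE 0.10, adjusted p = 0.132; 0.00188 with the block). The large proteins CENPE and CENPF overlapped between groups. CENPE ran from 95.5 to 119 CPM in control and 117 to 130 CPM in KO (0.19, SE 0.09, adjusted p = 0.212, 1.93e-04 with the block). CENPF ran from 291 to 345 and 319 to 366 CPM (0.11, SE 0.08, adjusted p = 0.45, 0.00564 with the block). In this set of 5, 1 passed the group test and 5 the block fit, all higher, where 3.28% and 17.2% of all genes were higher.

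KIF4A, a chromosome-bound kinesin that condenses chromosomes and sets the length of the central spindle, had the smallest adjusted p of all 38 genes. KIF4A (ENSG00000090889, chromosome X, 70290090 to 70420832, plus strand) measured 127, 123 and 115 CPM in control and 152, 158 and 146 CPM in KO, a 1.25-fold difference (log2 fold change 0.32, SE 0.06, adjusted p = 0.0147). The groups did not overlap, and it passed in 3 of the 6 leave-one-out fits (adjusted p from 0.00679 to 0.0709). The other kinesins were higher in every pair, by smaller amounts. None of these 4 passed the group test (adjusted p = 0.185 for KIF20A, 0.184 for KIF2C, 0.283 for KIF11 and 0.27 for KIF23). The adjusted p values that follow are those with the replicate block. KIF20A, a cytokinesis kinesin, measured 167, 163 and 152 against 193, 197 and 162 CPM, with overlap (0.20, SE 0.08; block adjusted p = 5.88e-05), KIF2C, which takes microtubules apart at centromeres, 230, 224 and 210 against 253, 252 and 233 CPM (0.15, SE 0.07; 3.55e-04), and KIF11, the motor that pushes spindle poles apart, 195, 201 and 180 against 218, 219 and 196 CPM, with overlap (0.14, SE 0.07; 0.00208). KIF23, of the central spindle, was nearly constant within groups, from 158 to 163 CPM in control and from 171 to 172 CPM in KO (0.10, SE 0.05; 0.0242). KIF20A also shares 5.05% of its exonic bases with genes on the other strand, CDC23 among them.

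Spindle assembly genes had a median log2 fold change of 0.11. TPX2, which activates AURKA on microtubules, measured 499, 492 and 432 CPM in control and 535, 542 and 484 CPM in KO, so that KO 3 lay below control 1 and 2 (0.13, SE 0.08, adjusted p = 0.332; 7.48e-04 with the block). FAM83D, which brings casein kinase to the spindle, had its lowest value of each group in replicate 3, 65.7 CPM in control and 70.0 CPM in KO. The other replicates measured 79.9 to 80.3 and 92.1 to 92.8 CPM (0.17, SE 0.12, adjusted p = 0.423, 0.00315 with the block). DLGAP5, a microtubule stabiliser, ran from 260 to 279 and from 283 to 294 CPM (0.08, SE 0.06), and the hyaluronan-binding spindle protein HMMR from 21.9 to 22.8 and 21.4 to 24.7 CPM (0.04, SE 0.08); neither passed in either fit. None of the 4 tested genes in this set passed the group test, where 3.28% of all genes rose and 6.42% fell. With the block 2 were called higher, where 17.2% of all genes were. Of the 4, 0 had an unadjusted p under 0.05, where 1646 of all 14704 tested genes were higher and 2082 lower. DESeq2 called 0 of the 4, where it called 593 of all genes higher and 966 lower.

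The 3 cytokinesis genes had the lowest median log2 fold change of the 8 functional sets, 0.02, which is the value of PRC1 itself. The 8 other cytokinesis genes, listed below outside the members, had a median of 0.14. Of the 3, none passed the group test, where 3.28% of all genes rose and 6.42% fell. An unadjusted p under 0.05 was found for 0 of them, where 1646 of all 14704 tested genes were higher and 2082 lower. DESeq2 called 0, where it called 593 of all genes higher and 966 lower. ANLN, anillin, the scaffold of the contractile ring, measured 595, 584 and 550 CPM in control and 546, 578 and 505 CPM in KO, with overlap, and was the lone tested gene below 0 (log2 fold change -0.086, SE 0.07, adjusted p = 0.502; 0.0342 with the block). ECT2, an exchange factor needed for furrowing, measured 290, 284 and 284 against 298, 304 and 300 CPM, without overlap (0.07, SE 0.05, adjusted p = 0.462; 0.0904 with the block). PRC1, whose level is uncertain as above, measured 5.91, 4.31 and 3.66 against 5.09, 4.67 and 4.29 CPM (0.02, SE 0.20). The summed level of these 3 genes was 867 ± 26.4 CPM in control and 849 ± 39.3 CPM in KO. Most of that sum was ANLN, with 576 ± 23.0 CPM in control and 543 ± 36.8 CPM in KO. Each of the other 7 functional sets was higher on average in KO, by between 8.51% and 20.3%. Whether the sets differ from each other was not tested.

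At mitotic exit, CDC20, the activator of the APC/C, measured 297, 298 and 263 CPM in control and 355, 356 and 321 CPM in KO. The groups did not overlap, yet the gene missed the threshold (log2 fold change 0.27, SE 0.07, adjusted p = 0.0588; 3.58e-09 with the block). UBE2C, the ubiquitin-conjugating enzyme that works with the APC/C, measured 176, 179 and 196 against 198, 205 and 223 CPM (0.19, SE 0.07, adjusted p = 0.141; 3.56e-05 with the block). Securin, PTTG1, an APC/C substrate that holds separase in check, measured 136, 136 and 162 against 146, 151 and 172 CPM, with overlap because control 3 was high (0.11, SE 0.09, adjusted p = 0.505; 0.0177 with the block). None of these 3 passed the group test, where 3.28% of all genes rose and 6.42% fell. An unadjusted p under 0.05 was found for 2, both higher, where 1646 of all 14704 tested genes were higher. DESeq2 called 1 higher, where it called 4.03% of all genes.

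Both genes of the mitotic chromosome were higher without passing. MKI67, the proliferation marker Ki-67 that coats mitotic chromosomes, measured 450, 477 and 381 CPM in control and 582, 596 and 498 CPM in KO, a log2 fold change of 0.36 (SE 0.10, adjusted p = 0.0598; 2.99e-13 with the block, the smallest of the 38). Its KO 3 value lay just above control 2, and replicate 3 was its lowest in both groups. TOP2A, topoisomerase II alpha, which untangles sister chromatids, measured 639, 660 and 617 against 710, 756 and 739 CPM (0.20, SE 0.06, adjusted p = 0.0754; 1.69e-06 with the block). DESeq2 called both higher (adjusted p = 0.0103 and 0.0192), where it called 4.03% of all genes higher.

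**Figure D5:**
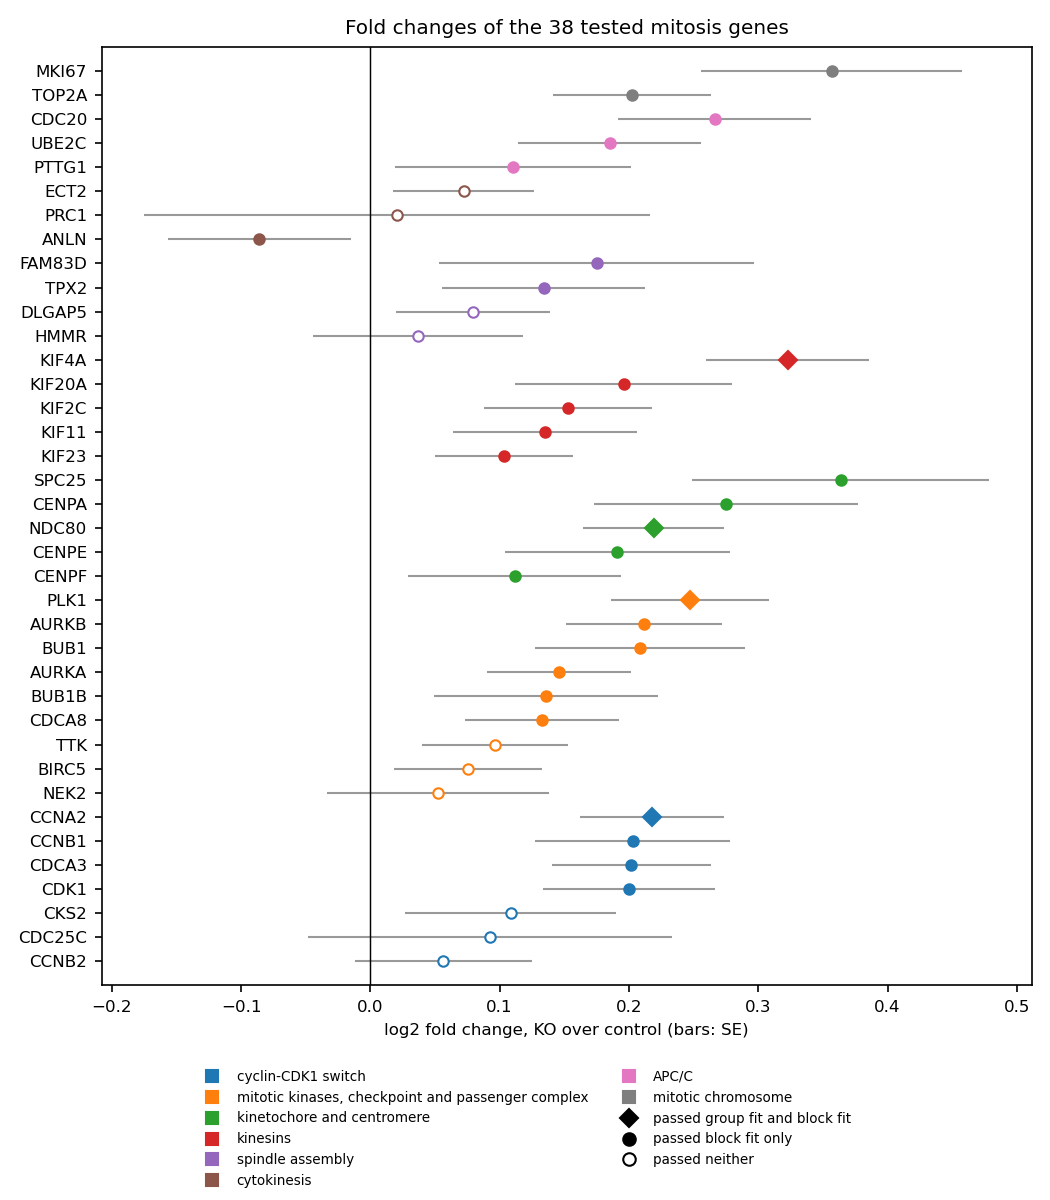
Log2 fold change, KO over control, of the 38 tested genes with their SE (n = 3 libraries a group), grouped by role. Diamonds passed the group fit (KIF4A, PLK1, NDC80 and CCNA2), filled circles passed with the replicate block alone, and open circles passed neither; ANLN is the lone gene to the left of 0.

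The wider mitotic machinery, 134 genes outside the 39 above, was read from lists of its parts. Of 133 tested, 17 rose (12.8%) and 2 fell, where 3.28% of all genes rose and 6.42% fell, with a median log2 fold change of 0.11. With the block 60 were called higher (45.1%) and 4 lower, where 17.2% and 16.7% of all genes were. The untested gene was MAD1L1, of the spindle checkpoint, with 0 counts in 4 libraries and 1 in each of the other two. Without a single library the number called higher was 1 (control replicate 1 or control replicate 2), 4 (KO replicate 1), 5 (KO replicate 2), 13 (control replicate 3) or 25 (KO replicate 3). In the first 4 of these fits 0 were called lower, and in the last pair 2 and 1. The calls over all genes moved as well. In the order given, the fits called 139, 136, 183, 175, 347 and 777 of all genes higher. They called 452, 436, 503, 487, 852 and 964 lower. Of the 19 mitotic genes that rose or fell with all libraries, CENPP passed in all 6 leave-one-out fits, and E2F2 and UBE2S in 4. PKMYT1, CDC25A and FBXO5 passed in 3. RBL2, CDC23, CENPN, CENPO, NCAPG and NCAPH2 passed in 2, and the remaining 7 (E2F3, E2F8, NEK9, ANAPC7, SKA3, OIP5 and NCAPH) in 1; ANAPC7 and OIP5 are listed here for completeness, outside the rule for named genes.

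Of 19 regulators of these promoters, 3 rose and 1 fell (10 and 2 with the block). Over all genes 3.28% rose and 6.42% fell (17.2% and 16.7% with the block). E2F2 (17.0 ± 1.62 to 23.9 ± 1.53 CPM; log2 fold change 0.49, SE 0.10, adjusted p = 0.0156) and E2F3 (0.27, SE 0.06), both activating E2F factors, and the repressive E2F8 (0.31, SE 0.08) rose. RBL2, the p130 pocket protein of the DREAM complex, fell from 39.6 ± 2.50 to 31.2 ± 1.47 CPM (-0.34, SE 0.08, adjusted p = 0.0239). FOXM1 and MYBL2, the factors that bind mitotic promoters in G2, did not pass (log2 fold change 0.20, SE 0.10, adjusted p = 0.249, 8.42e-06 with the block and log2 fold change 0.16, SE 0.12, adjusted p = 0.437, 0.00228 with the block).

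Of 17 APC/C subunits and partners, 4 rose and 0 fell, where 3.28% of all genes rose and 6.42% fell. With the block 5 were called higher, where 17.2% of all genes were. At an unadjusted p under 0.05 and by DESeq2, 0 of the 17 were lower, where 2082 and 966 of all 14704 tested genes were. UBE2S, the enzyme that extends ubiquitin chains on APC/C substrates, went from 344 ± 9.38 to 436 ± 4.61 CPM (0.34, SE 0.06, adjusted p = 0.00726), FBXO5, the APC/C inhibitor EMI1, from 44.2 ± 0.556 to 54.7 ± 1.89 CPM (0.31, SE 0.06), and CDC23, a scaffold subunit, had a log2 fold change of 0.26 (SE 0.06). Of 18 kinases and phosphatases of mitotic entry, the phosphatase CDC25A (0.30, SE 0.06) and the CDK1-inhibitory kinase PKMYT1 (0.35, SE 0.07) rose and the NIMA-family kinase NEK9 (-0.25, SE 0.06) fell. Of these 18, 6 were called higher and 1 lower with the block, where 17.2% and 16.7% of all genes were.

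Centromere and condensin genes were the other lists with several calls. Over all genes 3.28% rose, and 17.2% were called higher with the block. Of 18 inner centromere genes 4 rose (7 with the block), among them CENPP (10.4 ± 0.415 to 15.5 ± 0.872 CPM; 0.58, SE 0.10, adjusted p = 0.00668), CENPO (0.26, SE 0.06) and CENPN (0.36, SE 0.09). Of 8 condensin genes 3 rose (6 with the block): NCAPH2 (0.29, SE 0.06), NCAPG (0.24, SE 0.05) and NCAPH (0.24, SE 0.06). SKA3, a kinetochore-microtubule coupler (0.33, SE 0.08), was the 1 of 20 tested checkpoint and outer kinetochore genes that rose (5%, near the 3.28% of all genes); 8 were called higher with the block.

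No gene passed among 10 of cohesin and separase, 15 other spindle genes and 8 other cytokinesis genes. At an unadjusted p under 0.05, 3, 4 and 3 of them were higher and 0, 1 and 0 lower. Of all 14704 tested genes, 1646 were higher and 2082 lower at that p. DESeq2 called 2, 1 and 0 higher, where it called 593 (4.03%) of all genes higher and 966 lower. With the block 5, 8 and 5 were called higher, and 1 of the spindle genes lower, where 17.2% and 16.7% of all genes were. The smallest adjusted p belonged to CDCA5, which protects cohesion (0.21, SE 0.06, adjusted p = 0.0677; 1.52e-05 with the block), and SMC1A, a cohesin subunit (0.20, SE 0.06, 0.0788; 1.39e-05), in the first list. In the second they were the kinetochore protein KNSTRN (0.25, SE 0.07, 0.0609; 1.57e-04) and the kinesin KIF18A (0.20, SE 0.06, 0.0858; 0.00219). In the third they were the abscission protein CEP55 (0.17, SE 0.06, 0.11; 2.25e-04) and ARHGAP11A (0.21, SE 0.09, 0.173; 4.19e-04).

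Beside these, 7 of 39 genes of DNA replication and S phase rose, with a median log2 fold change of 0.21 against 0.15 for the 39 mitosis genes, RRM2 (0.57, SE 0.06), CCNE2 (0.53, SE 0.07) and CLSPN (0.46, SE 0.06) having the smallest adjusted p. The 7 are 17.9% of the list, where 3.28% of all genes rose. DESeq2 called 12 higher, where it called 4.03% of all genes. The block fit called 34 higher (87.2%, where 17.2% of all genes were). The fit without both replicate 3 libraries called 26 higher (66.7%, where 11.7% of all genes were). Whether the S phase and mitosis genes differ was not tested.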

How the data were processed

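Polyadenylated RNA of 3 control and 3 KO libraries was sequenced after a stranded library preparation. The authors deposited raw counts per gene name. STAR 2.7.9a, FastQC 0.11.9, R 4.1.1 and featureCounts, and the build hg38, are named in the submitters' processing notes. The annotation, strand setting and treatment of shared reads were not stated in the sources used here. Genes were kept by filterByExpr (14704), scaled with TMM factors and tested with edgeR's quasi-likelihood test (robust fit, group as the single term), with Benjamini-Hochberg adjustment over all genes and a threshold of 0.05. Versions were DESeq2 1.42.0, limma 3.58.1 and edgeR 4.0.16 under R 4.3.3. The procedure was run on simulated counts drawn without a replicate effect, so that run does not bear on the replicate differences seen here.

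The members, gene lists and alternatives were chosen with earlier results of these data known. All 39 members are named; other lists name up to 3 genes per direction with the smallest adjusted p, or 2 where none passed; FOXM1 and MYBL2 were named after their values were seen. Both groups carry replicate numbers 1 to 3. Over 10032 genes, deviations from the group mean correlated at 0.55, 0.45 and 0.83 between same-numbered libraries (across genes, which are not independent). The numbers were treated as pairing the libraries, which the labels do not state. Control 1 correlated more with KO 2 (0.59) and control 2 with KO 1 (0.58). The data thus match replicate 3 across the groups but do not settle how replicates 1 and 2 pair. Depth sets 3 counts at between 0.128 and 0.165 CPM; such limits cover counting error only. The alternatives were other scalings, no filter, DESeq2, the replicate block, each library left out, and both replicate 3 libraries left out. Positions and exon lengths are from GENCODE release 29, promoters from RefSeq. A further listed marker of another cell type is not reported here.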

Additional observations from a re-analysis of the deposited data

How the results depend on the processing

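Under the replicate block, 2522 genes were higher and 2461 lower, 27 members were higher and 1 lower, and 60 other mitotic genes were higher and 4 lower. Of the 4 other mitotic genes lower under the block, NUMA1 (log2 fold change -0.20, adjusted p = 0.0983; 1.30e-05 with the block) and TFDP2 (-0.18, 0.181; 0.0233), named after their values were seen, did not pass the group test. Without both replicate 3 libraries these counts were 1731 and 2023 genes, 25 members higher, and 47 and 4 other mitotic genes. DESeq2 called 8 members higher. With 1 library left out, 136 to 777 genes were higher and 436 to 964 lower, 0 to 11 members higher, and 1 to 25 other mitotic genes higher and 0 to 2 lower. The members' median log2 fold change was 0.16 with DESeq2 size factors, 0.13 with upper-quartile factors and 0.16 with DESeq2, and 0.13 to 0.20 with 1 library left out. KIF4A, PLK1, NDC80 and CCNA2 all passed under both other scalings, with DESeq2, with the block and without both replicate 3 libraries. Without the low-count filter 5 members passed (KIF4A, PLK1, CDC20, MKI67 and SPC25), and NDC80 and CCNA2 did not. Over all settings the median of all genes lay between -0.011 and 0.013. Signs turned with 1 library left out for 5 genes that passed in no fit: CCNB2 (-0.0034 to 0.11), CDC25C (-0.057 to 0.19), NEK2 (-0.024 to 0.12), HMMR (-0.0081 to 0.11) and PRC1 (-0.13 to 0.24; -0.025 without control replicate 2 and -0.031 without KO replicate 1), and PRC1 was -0.077 without both replicate 3 libraries. The cause of these changes was not tested. With 3 libraries a group, the SE of single members ran from 0.05 to 0.20 on the log2 scale. Each SE was worked back from the log2 fold change and edgeR's test statistic, which pools information on spread across genes. It is therefore not a measure of the spread of that gene's own libraries alone.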
